A study of Mus musculus with 18 samples.

Results

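The genes described here are 42 adipocyte and fatty acid synthesis genes, covering adipokines, lipid droplet proteins, fatty acid uptake, lipolysis, triglyceride synthesis, the transcriptional regulators of these steps and the enzymes that make fatty acids. Each gene was taken from an Affymetrix Mouse Genome 430 2.0 array by its exact symbol in the array's probe annotation, with 1 probe set per gene, the one with the highest mean over all 18 arrays. Of the 42 genes, 38 had a probe set under that symbol, while Cfd, Plin1, Acsl1 and Adrb3 had no probe set so named and were not analysed here. Aqp7, Acvr1c and Ucp1 varied by less than 0.01 over the 18 arrays and were left out, so 35 genes are described, out of 18193 genes named on the array and 6842 that varied by at least 0.01.

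Dorsal skin was taken from 6 male mice of HR-1, a hairless albino strain, in each of 3 groups, and total RNA was hybridised. The labels give an age of 6 weeks for all mice, which is not taken here as the age at sampling. WB mice had their skin tape stripped and swallowed an extract of winged bean, a legume, at 200 mg/kg/day, given as 20 mg/ml in 0.3% carboxymethylcellulose, 5 times a week for 5 weeks beginning 1 week before the stripping. TS mice were tape stripped without the extract: cellophane tape was applied to the left dorsal side and removed, 3 times a week for 4 weeks, and each session ended when transepidermal water loss, a measure of barrier damage, reached 70 to 100 g/m2/h. NT mice were not stripped. The labels state no carboxymethylcellulose for the TS and NT mice, so the extract and its vehicle cannot be told apart, and they name each array as a biological replicate. The comparison of TS with NT asks what repeated barrier damage does to these genes, and that of WB with TS what the extract does in damaged skin.

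White adipocytes lie beneath the dermis and store fatty acids as triglyceride in a lipid droplet coated by perilipins and CIDE proteins. Lipoprotein lipase and fatty acid carriers bring fatty acids in from blood, lipogenic enzymes make them from acetyl-CoA under the control of SREBP1 and the PPARG and C/EBP factors, and lipases release them again on hormonal demand. In mouse skin the sebaceous gland also makes fatty acids and lipid droplets, so Cidea, Fasn, Elovl6 and other members are not markers of adipocytes alone. The RNA was of whole skin, in which fewer cells of a type and less RNA per cell cannot be told apart.

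Promoter sequence was examined for the members that fell in TS skin. They share a direction because they were chosen by it. Member windows on 1 chromosome were left out. Otherwise RefSeq (GRCm38.p6) gave at least 1 window of 250 bases before a transcription start for 32 of the 42 genes. It gave 22 windows for 16 members that fell. The motifs searched on both strands were CACGTG (E-box), TCACCCCAC (sterol response element), AGGTCA (a nuclear receptor site), a direct repeat of that site with 1 base between, TTGCNNAA (C/EBP) and the TATA box TATAAA; every direct repeat also counts as the single site. The E-box was found in 2 of the 22 windows, against 6.02% of all 32851 windows of the table, and the C/EBP motif in 3, against 9.56%. The TATA box was found in 1 window, against 12.4%, and none of the 22 held the nuclear receptor site (14.0% of all windows), its direct repeat (0.0335%) or the sterol response element (0.496%). The 5 windows that hold a match are shown for the adipokines Lep and Rbp4, the droplet protein gene Cidec, the lipase gene Lipe and the elongase gene Elovl5, with the matching bases in capitals. They lie at chr6:29059971-29060220 (+ strand), chr19:38124812-38125061 (- strand), chr6:113434765-113435014 (- strand), chr7:25395988-25396237 (- strand) and chr9:77917115-77917364 (+ strand) and are written 5′ to 3′ on the gene's strand.
Lep: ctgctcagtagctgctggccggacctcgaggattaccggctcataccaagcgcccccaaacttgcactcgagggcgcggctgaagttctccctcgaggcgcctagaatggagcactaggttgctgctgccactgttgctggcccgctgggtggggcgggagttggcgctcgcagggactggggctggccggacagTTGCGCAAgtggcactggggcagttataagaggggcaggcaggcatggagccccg
Rbp4: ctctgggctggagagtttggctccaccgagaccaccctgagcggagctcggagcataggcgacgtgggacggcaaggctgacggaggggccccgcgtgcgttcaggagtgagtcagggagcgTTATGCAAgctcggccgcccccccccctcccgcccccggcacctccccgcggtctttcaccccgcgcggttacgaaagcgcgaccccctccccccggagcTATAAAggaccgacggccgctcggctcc
Cidec: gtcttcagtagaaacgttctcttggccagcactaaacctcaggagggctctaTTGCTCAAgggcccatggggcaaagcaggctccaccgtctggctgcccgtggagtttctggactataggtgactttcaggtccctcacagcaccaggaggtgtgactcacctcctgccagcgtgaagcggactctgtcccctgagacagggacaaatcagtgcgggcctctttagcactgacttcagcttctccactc
Lipe: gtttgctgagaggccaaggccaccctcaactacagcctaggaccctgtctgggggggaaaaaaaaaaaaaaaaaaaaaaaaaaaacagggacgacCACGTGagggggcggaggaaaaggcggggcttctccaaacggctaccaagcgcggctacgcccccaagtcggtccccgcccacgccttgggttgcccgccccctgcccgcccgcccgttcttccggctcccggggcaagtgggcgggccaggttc
Elovl5: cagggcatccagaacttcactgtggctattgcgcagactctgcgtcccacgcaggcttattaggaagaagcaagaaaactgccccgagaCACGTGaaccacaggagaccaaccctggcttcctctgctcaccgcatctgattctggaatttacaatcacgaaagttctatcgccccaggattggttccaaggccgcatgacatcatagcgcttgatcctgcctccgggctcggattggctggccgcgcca
Counting back from the base before the start as -1, the C/EBP match of Lep spans bases -55 to -48, that of Rbp4 bases -128 to -121 and that of Cidec bases -198 to -191. The E-box spans bases -155 to -150 in Lipe and -161 to -156 in Elovl5, and the TATA box of Rbp4 spans bases -28 to -23. A match is a description of these letters only, and binding was not measured.

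Values are the deposited expression values on a scale read as log2, and the log base is not stated in the sources used here; array medians averaged 6.90 in WB, 6.94 in TS and 6.94 in NT. Over the arrays of a group, probe set values correlated at r = 0.98 to 1.00 within WB, 0.99 to 1.00 within TS and 0.97 to 1.00 within NT. Replicate 5 of NT stood apart: albumin (Alb) was at 6.23 to 6.77 on TS arrays, against an NT median of 6.80 and 19.04 on that array, and the mean of 20 liver genes was 6.50 to 6.63 on TS arrays, against 6.54 on the lowest NT array and 13.44 on replicate 5. The WB arrays stood apart as a group. The 3′ minus 5′ difference of the beta-actin control probe sets, which rises when RNA or labelled RNA is shortened, was 5.69 ± 0.25 on WB arrays, 0.16 ± 0.07 on TS arrays and -0.51 ± 0.10 on NT arrays (SD, n = 6 each). The same difference for the Gapdh controls was 3.70 ± 0.36 in WB, -0.44 ± 0.11 in TS and -0.59 ± 0.11 in NT.

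In TS skin, with NT skin as its control, 22 of the 35 described genes fell and 0 rose, at an adjusted p under 0.05 in limma with a difference of at least 0.01. Thrsp, a lipogenic nuclear protein, had the largest difference, -4.15 (17.7-fold lower), and the adipokines Adipoq, Lep, Retn, Orm1 and Rbp4 all fell, with differences of -2.22 to -1.32. The droplet genes Cidec and G0s2, the lipase gene Lipe and the glycerol phosphate dehydrogenase gene Gpd1 fell, with differences of -2.19 to -1.40. Genes of fatty acid synthesis moved less, with Fasn the largest at -1.05, and Cidea, Plin2, Pnpla2, Dgat1, Cebpa, Acacb, Acly and Elovl6 had differences between -0.13 and 0.10 that did not pass. The 22 make up 62.9% of the described genes, beside 21.1% of all varying genes that fell and 19.3% that rose, and their median difference over the 35 was -0.55, beside 0.0019 for all varying genes. In 16 of the 35 every TS array lay below every NT array, which held for 13.7% of varying genes (above in 0 of the 35, against 12.4%). Without NT replicate 5, 20 of the 35 fell, and the calls of Acaca (adjusted p = 0.0673) and Elovl5 (0.103) were lost.

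**Figure D1:**
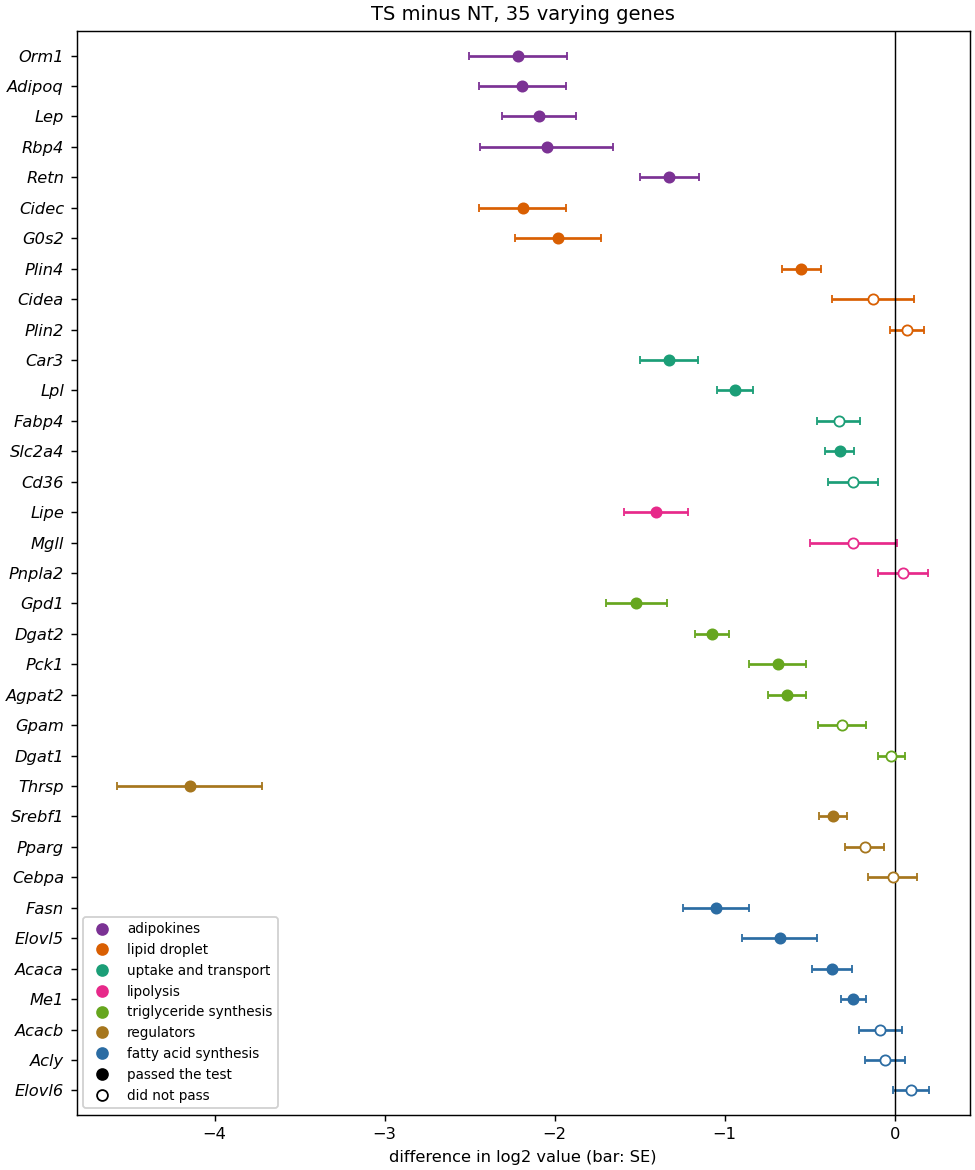
Difference in log2 value between TS and NT skin (horizontal axis, bar SE from limma over 18 arrays) for the 35 described genes, grouped and coloured by role and ordered by size within each role. Filled points passed the test; the 5 adipokines all lie left of -1.3, while Thrsp lies at -4.15 and the filled points of fatty acid synthesis lie between -1.05 and -0.24.

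Markers of other cell types were counted in the same comparison, in which 21.1% of all varying genes fell and 19.3% rose. Of 24 varying skeletal muscle genes 20 fell and 0 rose, and their mean over the list was 9.93 to 10.41 on TS arrays and 11.40 to 12.80 on NT arrays; on a summed level (log2 of the sum) the muscle genes stood at 15.49 to 16.01 in TS and 16.87 to 18.18 in NT. The mean of the 5 measured adipocyte markers among the members (Adipoq, Lep, Cidec, Fabp4 and Lipe) was 8.83 to 9.81 on TS arrays and 10.54 to 11.32 on NT arrays. Of 13 varying keratinocyte genes 9 rose and 1 fell, of 11 fibroblast genes 1 rose and 3 fell, of 12 adipocyte progenitor genes 4 fell, of 13 macrophage genes 1 rose and 9 fell, and of 6 endothelial genes 3 rose. Of 6 varying sebaceous gland genes 1 fell, and of 20 varying liver genes 0 passed, their level on TS arrays lying below the array medians. The 5 adipocyte markers are members themselves, so their mean is no separate measure. The part of the marker differences of other cell types in the falls of the members was not tested. Nor was that of the actin difference of 0.16 in TS and -0.51 in NT.

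**Figure D2:**
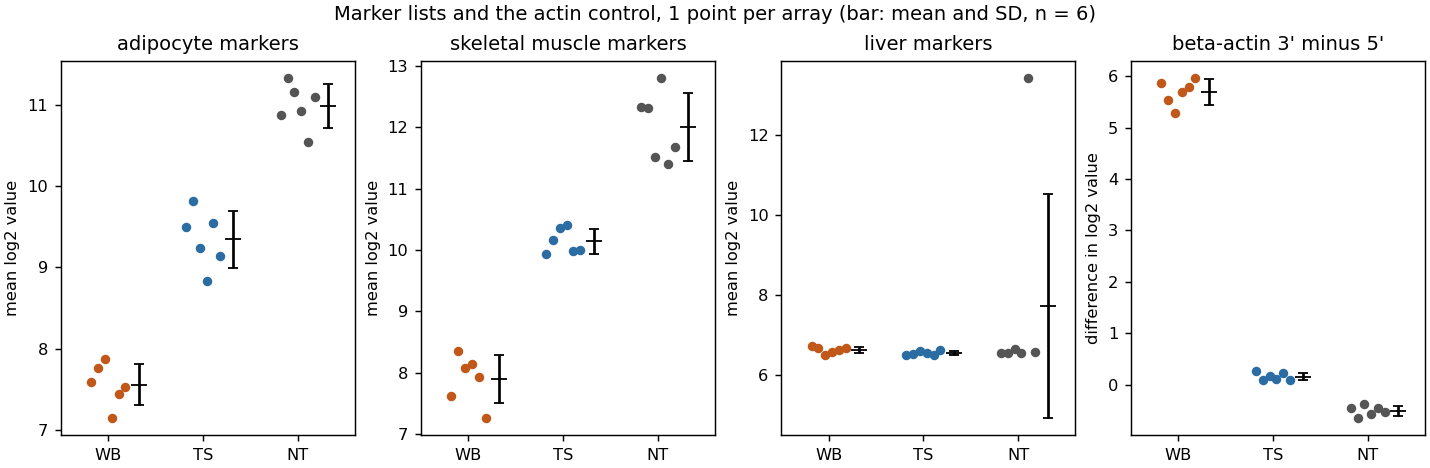
Mean log2 value of the adipocyte (5 genes), skeletal muscle (24 genes) and liver (20 genes) markers and the beta-actin 3′ minus 5′ difference, 1 point per array, for WB, TS and NT, with mean and SD (n = 6). Adipocyte and muscle means are lowest in WB and highest in NT without overlap, 1 NT array is high in liver markers at 13.44, and the 6 WB arrays lie above 5.2 in the actin difference.

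The adipokines were the role in which every described member fell in TS skin, beside 21.1% of all varying genes. Adiponectin, an adipocyte hormone abundant in blood, is encoded by Adipoq (1422651_at), whose lowest, median and highest values were 10.01, 10.93 and 11.47 in TS skin, against 12.61, 13.01 and 13.74 in NT skin. No TS array reached the lowest NT array, and the difference was -2.19 (SE 0.26, adjusted p = 3.77e-05), or 4.56-fold lower. Leptin (Lep, 1422582_at), which reports fat stores to the brain, was at 6.13, 6.51 and 7.27 in TS, against 8.23, 8.52 and 9.32 in NT. Its groups did not overlap either, and the difference was -2.09 (SE 0.22, adjusted p = 1.47e-05); no fold is given because the TS mean lay below the array median. Resistin (Retn, 1449182_at), a hormone that in mice is made by adipocytes, was at 9.38, 9.79 and 10.16 in TS, against 10.77, 10.98 and 11.95 in NT, a difference of -1.32 (SE 0.17, adjusted p = 9.93e-05) without overlap.

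Orosomucoid (Orm1, 1451054_at), an acute phase protein of liver and adipose tissue, was at 8.35, 9.31 and 10.14 in TS skin, against 11.08, 11.59 and 11.96 in NT skin. The difference was -2.22 (SE 0.29, adjusted p = 9.2e-05), or 4.64-fold lower, and the groups did not overlap. Retinol binding protein (Rbp4, 1426225_at), the carrier of vitamin A that liver and fat both secrete, was at 8.16, 8.39 and 8.76 in TS, against 9.79, 9.98 and 12.46 in NT. The highest NT value belonged to replicate 5, the array high in liver genes. With it the difference was -2.05 (SE 0.39, adjusted p = 0.00176), and without it -1.65 (adjusted p = 0.000387), so the fall remained a call.

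**Figure D3:**
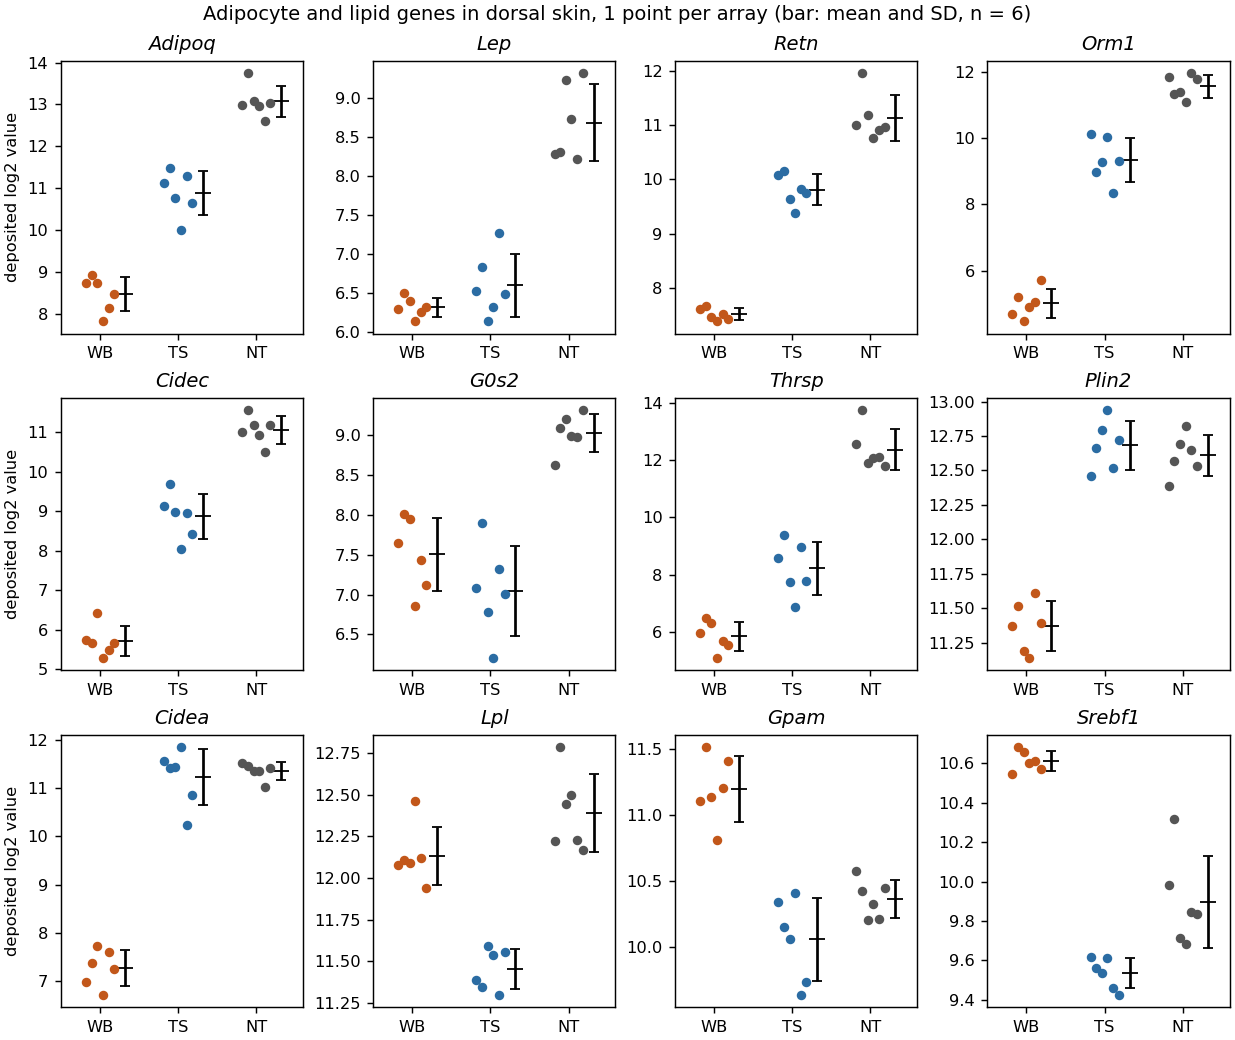
Deposited values, read as log2, of 12 members in WB, TS and NT skin, 1 point per array, with mean and SD (n = 6). Each panel has its own axis, which does not start at 0. Adipoq, Retn, Orm1, Cidec and Thrsp fall into 3 separate levels, lowest in WB, whereas Gpam and Srebf1 are highest in WB and Lep and G0s2 have overlapping WB and TS arrays.

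Of 5 described droplet genes 3 fell in TS skin, beside 21.1% of all varying genes. Cidec (1452260_at), whose product fuses droplets into the single large one of white adipocytes, was at 8.03, 8.97 and 9.68 in TS, against 10.49, 11.09 and 11.56 in NT, a difference of -2.19 (SE 0.26, adjusted p = 4.02e-05) without overlap. G0s2 (1448700_at), an inhibitor of the triglyceride lipase ATGL, was at 6.21, 7.04 and 7.89 in TS, against 8.61, 9.03 and 9.31 in NT, again without overlap and with a difference of -1.98 (SE 0.25, adjusted p = 8.08e-05). Plin4 (1418595_at), a coat protein of nascent droplets, fell by 0.55 (SE 0.12, adjusted p = 0.00379), with 9.06, 9.36 and 9.65 in TS against 9.59, 9.96 and 10.08 in NT and overlapping arrays. Cidea and Plin2 did not pass. Cidea, the CIDE protein gene that mouse sebaceous glands also express, differed by -0.13 (SE 0.24), and Plin2, the perilipin found on droplets of most cell types, by 0.07 (SE 0.10). Cidea was at 10.24, 11.43 and 11.85 in TS, against 11.02, 11.39 and 11.52 in NT.

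Among the genes of uptake and transport, 3 of 5 fell, beside 21.1% of all varying genes. Car3 (1449434_at), a carbonic anhydrase abundant in white fat and slow muscle, was at 11.98, 12.60 and 12.86 in TS, against 13.71, 13.82 and 14.01 in NT, a difference of -1.33 (SE 0.17, adjusted p = 9.01e-05) without overlap. Lpl (1415904_at), the lipase that frees fatty acids from lipoproteins, was at 11.30, 11.46 and 11.59 in TS, against 12.17, 12.34 and 12.79 in NT, 1.91-fold lower and also without overlap (difference -0.94 (SE 0.11, adjusted p = 2.77e-05)). The insulin-responsive glucose transporter gene Slc2a4, active in fat and muscle, fell by 0.32 (SE 0.09, adjusted p = 0.016), with overlapping arrays. Its call was lost when only the 12 TS and NT arrays were fitted (adjusted p = 0.0556), and its other probe set (-0.30, adjusted p = 0.0505) did not pass. Fabp4, the fatty acid binding protein of adipocytes, stood at 12.38, 12.61 and 12.88 in TS, against 12.66, 12.98 and 13.19 in NT, and its difference of -0.33 (SE 0.13, adjusted p = 0.107) did not pass; without WB replicate 4, which enters through the shared estimate of spread, the adjusted p was 0.024. Of the 3 other Fabp4 probe sets, 1451263_a_at (-0.35, adjusted p = 0.0275) and 1425809_at (-0.28, adjusted p = 0.023) fell. The fatty acid translocase gene Cd36 differed by -0.25 (SE 0.15, adjusted p = 0.351) and did not pass, while its probe set 1450884_at fell by 0.37 (adjusted p = 0.0468).

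In lipolysis 1 of 3 genes fell, beside 21.1% of all varying genes. Lipe (1422820_at), hormone-sensitive lipase, was at 7.43, 7.66 and 8.18 in TS, against 8.73, 9.08 and 9.82 in NT, with no overlap and a difference of -1.40 (SE 0.19, adjusted p = 0.000106). Pnpla2, which encodes ATGL, the lipase of the first step, differed by 0.05 (SE 0.15), and Mgll, the monoglyceride lipase of the last step, by -0.24 (SE 0.26). Neither passed the test. Mgll means were 11.99 ± 0.43 in TS and 12.24 ± 0.17 in NT (SD, n = 6 each).

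Of 6 triglyceride synthesis genes 4 fell in TS skin, beside 21.1% of all varying genes. Gpd1 (1448249_at), which makes the glycerol 3-phosphate backbone, was at 7.42, 7.76 and 8.15 in TS, against 8.95, 9.10 and 10.03 in NT, a difference of -1.52 (SE 0.18, adjusted p = 3.99e-05). Dgat2 (1422678_at), a final acyltransferase of triglyceride synthesis, was at 9.75, 10.15 and 10.25 in TS, against 10.94, 11.13 and 11.53 in NT, a difference of -1.07 (SE 0.10, adjusted p = 6.42e-06). Neither gene's groups overlapped, whereas Dgat1, whose enzyme carries out the same reaction, differed by -0.02 (SE 0.08) and did not pass. Agpat2, the acyltransferase of the second step, fell by 0.63 (SE 0.11, adjusted p = 0.000988), with 8.15, 8.48 and 8.58 in TS against 8.79, 9.00 and 9.57 in NT and no overlap. Pck1, the glyceroneogenic carboxykinase gene, fell by 0.69 (SE 0.17, adjusted p = 0.0107) with overlapping arrays. Its other varying probe set (-0.22, adjusted p = 0.269) did not pass. Gpam, the mitochondrial acyltransferase gene of the first step, differed by -0.31 (SE 0.14, adjusted p = 0.184) and did not pass.

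Of the 4 described regulators 2 fell, beside 21.1% of all varying genes. Thrsp (1424737_at), also called Spot 14, a nuclear protein that rises with lipogenesis, was at 6.87, 8.18 and 9.40 in TS, against 11.81, 12.10 and 13.75 in NT. The highest TS array lay more than 2 below the lowest NT array, and the difference was -4.15 (SE 0.43, adjusted p = 1.43e-05). Srebf1, the gene of the lipogenic factor SREBP1, was at 9.43, 9.55 and 9.62 in TS, against 9.68, 9.84 and 10.32 in NT, a smaller difference of -0.36 (SE 0.08, adjusted p = 0.00694) without overlap. The adipogenic factor genes Pparg and Cebpa differed by -0.18 (SE 0.11) and -0.01 (SE 0.15), and neither passed.

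Of 7 fatty acid synthesis genes 4 fell, 1 of them without overlap, beside 21.1% and 13.7% of all varying genes. Fasn (1423828_at), fatty acid synthase, was at 9.97, 10.20 and 10.47 in TS, against 10.86, 11.16 and 12.08 in NT, 2.07-fold lower (difference -1.05 (SE 0.19, adjusted p = 0.00131)). Acaca, the acetyl-CoA carboxylase of the committed step, fell by 0.37 (adjusted p = 0.0445), Elovl5, an elongase, by 0.68 (adjusted p = 0.0473), and Me1, the NADPH-supplying malic enzyme gene, by 0.24 (adjusted p = 0.0338). These 3 calls were close to the threshold. When each of the 18 arrays was left out in turn, the call of Acaca was lost in 15 cases (adjusted p up to 0.0838), that of Elovl5 in 12 (up to 0.103) and that of Me1 in 7 (up to 0.0817). Acacb, the carboxylase of the mitochondrial surface, Acly, ATP citrate lyase, and Elovl6, the elongase of palmitate, differed by -0.08, -0.05 and 0.10 (SE 0.13, 0.12 and 0.11) and did not pass.

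In WB skin, with TS skin as its control, 20 of the 35 described genes fell on their chosen probe sets, 9 rose and 6 did not pass. The acute phase gene Orm1, the droplet genes Cidea and Cidec, adiponectin, Thrsp and resistin fell, with differences of -4.35 to -2.30, and all 3 lipase genes fell. Gpam and Srebf1 rose by more than 1, and Lpl, Plin4, Agpat2, Acaca, Acly, Elovl5 and Me1 rose by 0.39 to 0.86. Leptin, Rbp4, G0s2, Car3, Fasn and Elovl6 did not pass. These shares were 57.1% lower and 25.7% higher, beside 39.2% lower and 48.4% higher among all varying genes, and the median difference was -0.51, beside 0.16 for all varying genes. In 15 genes every WB array lay below every TS array and in 6 above, which held for 34.7% and 41.3% of varying genes. This comparison shares its TS arrays with that of TS and NT, so their values are not independent.

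Markers of other cell types were counted in WB against TS as well, where 39.2% of all varying genes fell and 48.4% rose. Of 24 varying skeletal muscle genes 18 fell and 0 rose, with list means of 7.26 to 8.36 on WB arrays and 9.93 to 10.41 on TS arrays and summed levels of 13.80 to 14.62 in WB and 15.49 to 16.01 in TS. The mean of the 5 adipocyte markers was 7.15 to 7.87 on WB arrays and 8.83 to 9.81 on TS arrays. Of 13 macrophage genes 10 fell and 2 rose, of 6 endothelial genes 5 fell and 1 rose, of 11 fibroblast genes 6 fell and 2 rose, and of 12 adipocyte progenitor genes 6 fell and 4 rose. Of 13 keratinocyte genes 5 fell and 3 rose, of 6 sebaceous gland genes 2 fell and 1 rose, and of 20 liver genes 0 fell and 1 rose. By count of calls, none of these 3 lists fell or rose more often than all varying genes. Their levels were not all unchanged. The keratinocyte list mean was 11.56 to 11.86 on WB arrays and 12.01 to 12.34 on TS arrays. The sebaceous list mean overlapped, at 9.01 to 9.46 in WB and 9.32 to 10.30 in TS, but its summed level did not (12.19 to 12.74 and 12.79 to 13.57). The part of these shifts in the differences of the members was not tested.

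The shift of the control probe sets coincides with the WB group, with an actin difference of 5.27 to 5.96 on WB arrays and 0.08 to 0.26 on TS arrays, so the extract and this shift cannot be told apart in any single probe set. Where 1 gene had several varying probe sets, they often went opposite ways. In WB against TS, 18 further probe sets belonged to members whose chosen probe set was called: 8 of them carried the same call, 7 the opposite call and 3 none. In TS against NT, of 12 such probe sets 9 carried the same call, 0 the opposite and 3 none. Over 22 further probe sets of 14 genes, the sign matched that of the chosen probe set in 9 for WB against TS and in 20 for TS against NT.

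**Figure D4:**
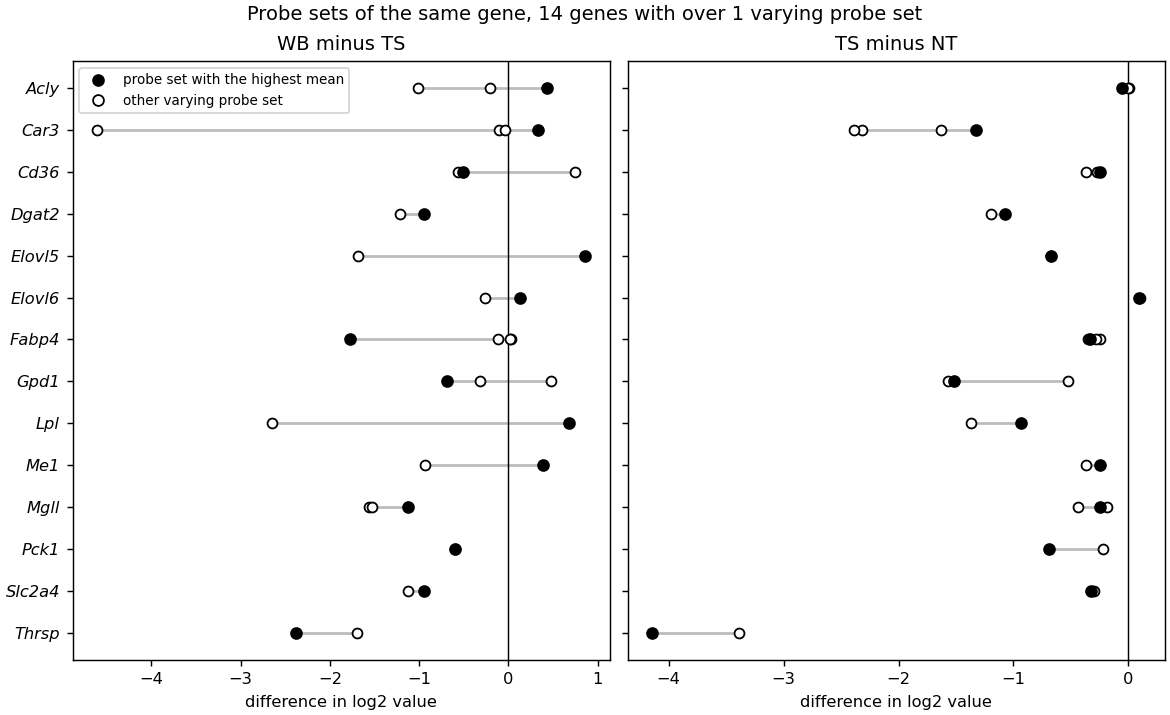
Difference in log2 value for each varying probe set of the 14 members with more than 1 (filled, the probe set with the highest mean; open, the others), WB minus TS on the left and TS minus NT on the right. On the left the probe sets of Acly, Car3, Cd36, Elovl5, Elovl6, Fabp4, Gpd1, Lpl and Me1 straddle 0, whereas on the right the probe sets of a gene lie on one side of 0, apart from Acly, which lies at 0.

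Lpl gave the clearest case. Its chosen probe set (1415904_at) was at 11.94, 12.10 and 12.46 in WB skin, against 11.30, 11.46 and 11.59 in TS skin, a rise of 0.68 (SE 0.11, adjusted p = 4.82e-05) with no overlap. The other (1431056_a_at) was at 7.76, 8.00 and 8.67 in WB, against 10.37, 10.69 and 11.10 in TS, a fall of 2.64 (SE 0.19, adjusted p = 7.49e-09), also with no overlap. In TS against NT both had fallen, by 0.94 and 1.37. Elovl5 likewise rose by 0.86 on its chosen probe set and fell by 1.68 on the other, Me1 rose by 0.39 and fell by 0.94, and Acly rose by 0.44 on one probe set and fell by 1.01 and 0.20 on its others. Car3 differed by 0.34 on its chosen probe set, which did not pass, by -0.11 and -0.03 on others and by -4.61 on 1460256_at, where WB was at 6.14, 7.03 and 7.40 and TS at 10.63, 11.52 and 12.18. Of the 9 genes that rose, Plin4, Gpam, Agpat2, Srebf1 and Acaca had 1 varying probe set.

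Among the adipokines 3 of 5 fell in WB skin, beside 39.2% of all varying genes. Adipoq was at 7.82, 8.59 and 8.93 in WB, against 10.01, 10.93 and 11.47 in TS, without overlap and with a difference of -2.41 (SE 0.26, adjusted p = 6.94e-07). Retn was at 7.38, 7.49 and 7.66 in WB, against 9.38, 9.79 and 10.16 in TS, a difference of -2.30 (SE 0.17, adjusted p = 1.26e-08). Both stayed above the WB array median. Orm1 was at 4.47, 4.98 and 5.72 in WB, against 8.35, 9.31 and 10.14 in TS, a difference of -4.35 (SE 0.29, adjusted p = 2.43e-09) that ended below the array median, so no fold is given. Lep, already low in TS, was at 6.14, 6.30 and 6.50 in WB, against 6.13, 6.51 and 7.27 in TS, and its difference of -0.28 (SE 0.22, adjusted p = 0.351) did not pass, nor did that of Rbp4 (-0.30 (SE 0.39, adjusted p = 0.637)).

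Of the 5 droplet genes 3 fell and 1 rose, beside 39.2% and 48.4% of all varying genes. Cidea, which had not passed in TS against NT, was at 6.72, 7.31 and 7.71 in WB, against 10.24, 11.43 and 11.85 in TS, 15.6-fold lower (difference -3.96 (SE 0.24, adjusted p = 7.51e-10)). Cidec was at 5.29, 5.67 and 6.42 in WB, against 8.03, 8.97 and 9.68 in TS, a difference of -3.15 (SE 0.26, adjusted p = 3.11e-08). Every WB array lay below every TS array for both genes. Plin2 was at 11.14, 11.38 and 11.61 in WB, against 12.46, 12.69 and 12.94 in TS, a difference of -1.31 (SE 0.10, adjusted p = 1.04e-08), also without overlap. Plin4 rose by 0.42 (SE 0.12, adjusted p = 0.00676) with overlapping arrays, and G0s2 differed by 0.45 (SE 0.25, adjusted p = 0.166) and did not pass; without TS replicate 2 it was 0.62 higher in WB (adjusted p = 0.039).

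Of the uptake genes Fabp4, Slc2a4 and Cd36 fell and Lpl rose on its chosen probe set. Among all varying genes 39.2% fell and 48.4% rose. Fabp4 was at 10.27, 10.94 and 11.06 in WB, against 12.38, 12.61 and 12.88 in TS, a difference of -1.77 (SE 0.13, adjusted p = 7.54e-09) without overlap. Its 3 other probe sets differed by -0.11, 0.01 and 0.03 and did not pass. Slc2a4 was at 7.22, 7.31 and 7.41 in WB, against 8.11, 8.19 and 8.47 in TS, and fell by 0.95 on this probe set and by 1.12 on its other. Cd36 fell by 0.51 and 0.56 on 2 probe sets and rose by 0.75 on 1450884_at. Without WB replicate 4, Car3 was 0.45 higher in WB on its chosen probe set (adjusted p = 0.0256).

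The 3 lipases all fell in WB skin, beside 39.2% of all varying genes. Lipe was at 6.21, 6.35 and 7.01 in WB, against 7.43, 7.66 and 8.18 in TS, a difference of -1.29 (SE 0.19, adjusted p = 2.2e-05) without overlap. Pnpla2 was at 8.43, 8.85 and 9.27 in WB, against 9.33, 9.73 and 10.02 in TS, a difference of -0.86 (SE 0.15, adjusted p = 0.000128) without overlap. Mgll fell on each of its 3 varying probe sets, with differences of -1.13, -1.53 and -1.56, and the arrays of the chosen one overlapped, at 10.01, 10.91 and 11.75 in WB and 11.33, 12.09 and 12.44 in TS.

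Triglyceride synthesis genes went both ways in WB skin, with 4 lower and 2 higher, beside 39.2% and 48.4% of all varying genes. Gpam was at 10.81, 11.17 and 11.51 in WB, against 9.64, 10.11 and 10.41 in TS, a rise of 1.14 (SE 0.14, adjusted p = 4.31e-06) without overlap, or 2.2-fold. Agpat2 was at 8.91, 8.94 and 9.09 in WB, against 8.15, 8.48 and 8.58 in TS, a rise of 0.53 (SE 0.11, adjusted p = 0.000895). Both final acyltransferases fell, Dgat2 by 0.95 (adjusted p = 7.86e-07) and Dgat1 by 0.26 (adjusted p = 0.0115). Dgat2 was at 9.01, 9.11 and 9.30 in WB, against 9.75, 10.15 and 10.25 in TS, and its other varying probe set fell by 1.21. Pck1 fell by 0.59 on both of its varying probe sets, and Gpd1 fell by 0.68 and 0.32 on 2 probe sets and rose by 0.48 on 1439396_x_at.

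Among the regulators 3 fell and 1 rose, beside 39.2% and 48.4% of all varying genes. Cebpa was at 8.24, 8.46 and 8.76 in WB, against 9.87, 10.36 and 10.88 in TS, 3.76-fold lower (difference -1.91 (SE 0.15, adjusted p = 1.47e-08)). Pparg was at 7.58, 7.73 and 7.91 in WB, against 8.13, 8.42 and 8.83 in TS, a difference of -0.73 (SE 0.11, adjusted p = 5.88e-05). Srebf1 moved the other way, at 10.54, 10.61 and 10.68 in WB, against 9.43, 9.55 and 9.62 in TS, a rise of 1.08 (SE 0.08, adjusted p = 1.6e-08). The arrays of WB and TS did not overlap for any of these 3 genes or for Thrsp, which was at 5.09, 5.83 and 6.47 in WB, against 6.87, 8.18 and 9.40 in TS, and fell by 2.38 on its chosen probe set and by 1.69 on its other.

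Of the fatty acid synthesis genes 4 rose and 1 fell on their chosen probe sets, beside 48.4% and 39.2% of all varying genes. Acaca was at 8.97, 9.00 and 9.08 in WB, against 8.46, 8.52 and 8.62 in TS, a rise of 0.47 (SE 0.12, adjusted p = 0.00318) without overlap. Acly, Elovl5 and Me1 rose on the chosen probe set and fell on another, as given above. The chosen probe sets of Acly (1439459_x_at) and Elovl5 (1437211_x_at) carry the suffix that Affymetrix gives to sets in which some probes also match other transcripts. Acacb fell by 0.41 (SE 0.13, adjusted p = 0.0137), Fasn differed by -0.36 (SE 0.19, adjusted p = 0.153) and Elovl6 by 0.13 (SE 0.11, adjusted p = 0.39), and neither passed on its chosen probe set. The other varying probe set of Elovl6 (1417403_at) fell by 0.26 (adjusted p = 0.0326).

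**Figure D5:**
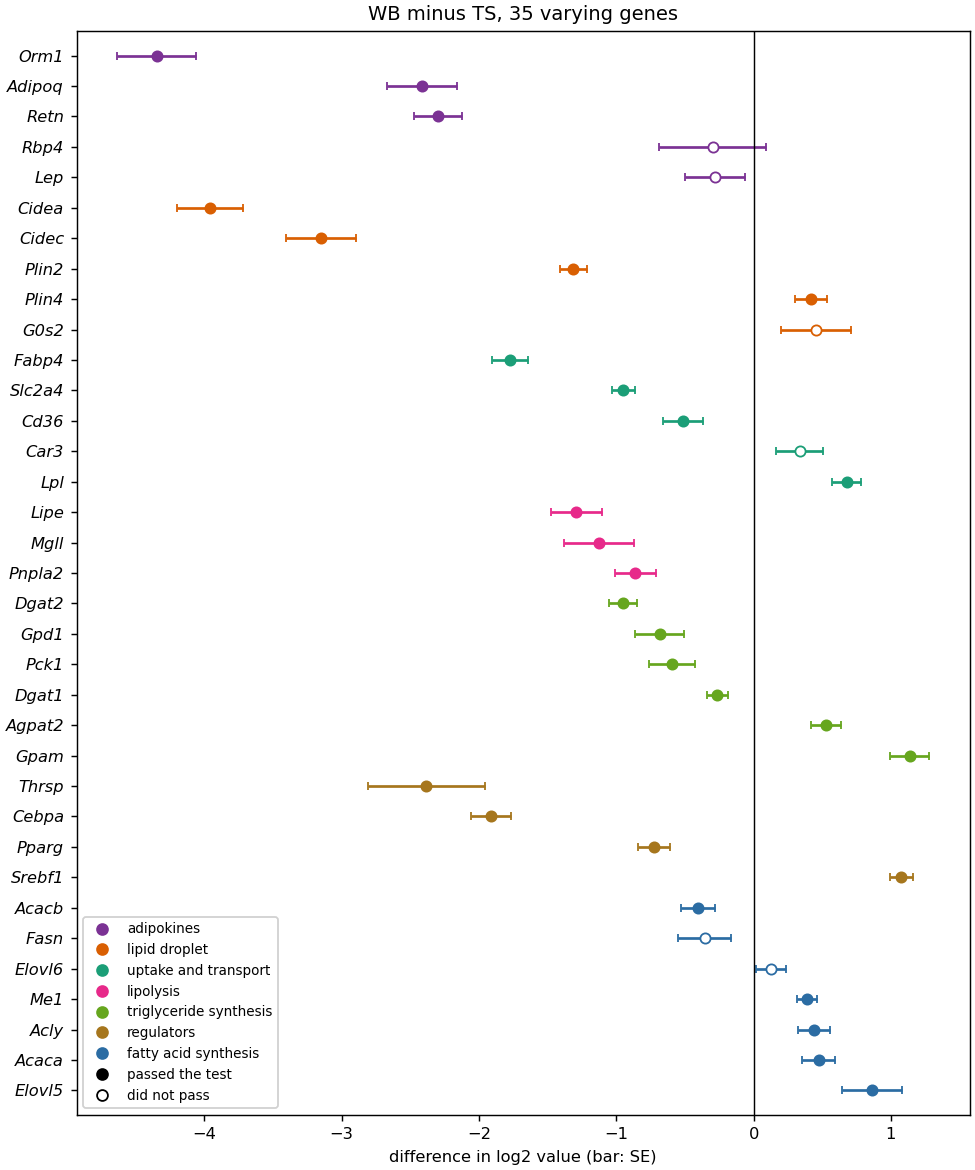
Difference in log2 value between WB and TS skin (horizontal axis, bar SE from limma over 18 arrays) for the 35 described genes, grouped and coloured by role. Filled points passed the test; Orm1, Cidea and Cidec lie left of -3, and the points right of 0 that passed include Gpam at 1.14 and Srebf1 at 1.08.

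In WB skin, with NT skin as its control, 25 of the 35 described genes fell, 3 rose and 7 did not pass, or 71.4% lower beside 41.3% of all varying genes and 8.57% higher beside 46.9%. Of the 7 that did not pass on the chosen probe set, Lpl (-4.02), Elovl5 (-2.36) and Me1 (-1.30) fell on their other varying probe set. Among the chosen probe sets Orm1 and Thrsp were furthest apart, at differences of -6.56 and -6.53, followed by Cidec at -5.34 and Adipoq at -4.60; Car3 differed by -0.99 on its chosen probe set and by -6.99 on 1460256_at. Gpam (0.83 (SE 0.14, adjusted p = 0.000113)), Srebf1 (0.72 (SE 0.08, adjusted p = 1.95e-06)) and Acly (0.38 (SE 0.12, adjusted p = 0.0124)) rose on their chosen probe sets, but the 2 other probe sets of Acly fell, by 1.01 and 0.20. Of 18 further probe sets of members whose chosen one was called, 14 carried the same call, 3 the opposite call and 1 none. In 24 genes every WB array lay below every NT array, and in 2 above, which held for 37.4% and 43.1% of varying genes. The actin difference of 5.69 in WB and -0.51 in NT runs with this comparison too, as do the muscle genes, of which 22 of 24 fell and 0 rose, and the macrophage genes, of which 10 of 13 fell and 0 rose.

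Single mice were often extreme across members. NT replicate 2 was the highest NT array in 21 of the 35 genes, TS replicate 5 the lowest TS array in 15 and WB replicate 4 the lowest WB array in 19. Within NT the widest member was Rbp4, with an SD of 1.03 that replicate 5 set, followed by Thrsp with 0.73. Thrsp was also the widest in TS, with an SD of 0.93, and Mgll the widest in WB, with 0.62.

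Of 26 varying genes of adipocytes outside the member set, 14 fell and 1 rose in TS skin, with a median of -0.49. Among all varying genes 21.1% fell and 19.3% rose. The 4 with the smallest p were Npr3, a clearance receptor for natriuretic peptides (-1.91), the glutamine transporter gene Slc1a5 (-1.50), the adipocyte galectin gene Lgals12 (-1.37) and Sncg, a synuclein of fat and neurons (-0.85), and the 1 that rose was Abhd5, the activator of ATGL (1.06). In WB against TS, 13 of the 26 fell and 6 rose, beside 39.2% and 48.4% of all varying genes. Those with the smallest p were the caveolar coat gene Cavin1 (-3.44), Apoc1 (-4.50), Sncg (-2.33) and caveolin Cav1 (-1.23).

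Of 13 varying further regulators of adipogenesis, 4 fell and 3 rose in TS skin, beside 21.1% and 19.3% of all varying genes. Ppargc1b (-0.48) and Mlxipl, the carbohydrate response factor gene (-0.62), fell, while Scap, the escort of SREBP (0.32), and the Kruppel-like factor gene Klf5 (1.09) rose. In WB against TS, 4 fell and 6 rose, beside 39.2% and 48.4% of all varying genes. Of 21 varying genes of desaturation, elongation and substrate supply, 6 fell and 1 rose in TS skin. Acss2, which makes acetyl-CoA from acetate, fell by 1.34, the desaturase genes Scd1 and Scd3 by 0.54 and 1.41, and Idh1 by 0.16. In WB against TS, 9 of these 21 fell and 10 rose, near the shares of all varying genes.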

How the data were processed

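The 18 arrays were labelled from 100 ng of total RNA extracted with Isogen and RNeasy columns, per the labels' protocols. The authors deposited 1 table of log2 expression values for 45101 probe sets; how probes were summarised and normalized, and the log base, are not given in the sources used here. Its values run from 2.93 to 19.04, 73.5% of the tested probe sets vary by less than 0.01, and 13 values above 16 all lie on NT replicate 5. After 64 Affymetrix control probe sets were left out, 45037 entered 1 linear model over all 18 arrays (limma 3.58.1 on R 4.3.3, moderated two-sided test), with Benjamini-Hochberg adjustment over all of them. A gene was called at an adjusted p under 0.05 with a difference of at least 0.01. Of the tested probe sets 34945 carry 1 gene symbol, 932 several and 9160 none. The procedure was tested on simulated data. The genes and lists were chosen with earlier results of these data known. Any varying member may be named. Of each other list, the 4 varying genes with the smallest p in a comparison, and Alb, Apoa1, Pvalb and Acta1, could be named. Not every list and comparison has genes named. Abhd5 was named after its value was seen, as the 1 gene of its list that rose. Alternatives were quantile normalization, median centring, filters, array weights, the 12 arrays compared, a replicate block, a variance trend, other probe set choices and leaving out each array. The number of arrays limits the precision.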

Additional observations from a re-analysis of the deposited data

Results flagged for a closer look

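In 105 tests of a gene within a group of 6 arrays, 7 had 1 array separated from its nearest neighbour by a share of the group's range above Dixon's critical value for 6 arrays; chance gives about 1 such case in 20. In WB, replicate 4 was low for Fabp4 (10.27, nearest array 10.81, ratio 0.681) and high for Lpl (12.46, nearest 12.12, ratio 0.66). In NT, replicate 2 was high for 4 genes: Retn (11.95, nearest 11.19, ratio 0.644), Pparg (9.00, nearest 8.62, ratio 0.811), Fasn (12.08, nearest 11.32, ratio 0.628) and Acaca (9.57, nearest 8.87, ratio 0.734). NT replicate 5 was low for Cidea (11.02, nearest 11.35, ratio 0.65). In TS against NT without NT replicate 2, the falls of Retn, Fasn and Acaca stayed past the threshold and the difference of Pparg did not pass. The size of the Acaca fall was less steady. With each array left out in turn its difference was -0.43 to -0.23, against -0.37 with all arrays. Without NT replicate 2 Acaca was 0.24 higher in WB than in NT (adjusted p = 0.000626), against 0.10 (adjusted p = 0.556) with it.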

How the results depend on the processing

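Of 2940 alternative values of single members, 2833 kept their direction and their side of the threshold, 47 lost a call, 26 gained one and 34 changed sign. In TS against NT the count of members that fell was 17 to 23 over the other settings (17 with a minimum of 1.5-fold) and 19 to 21 when 1 array was left out, with 0 higher each time. In WB against TS the count that rose was 5 with the probe set of largest variance and 4 with a minimum of 1.5-fold, against 9, and 9 to 10 when 1 array was left out. In WB against NT it was 5 after quantile normalization and 5 after median centring, against 3, and 3 to 5 when 1 array was left out, 5 without NT replicate 2. Scaling moved the count of probe sets that rose, by construction, since it shifts probe sets that do not vary: in TS against NT to 4682 after quantile normalization (2238 as deposited), in WB against TS to 35075 after quantile normalization and 39061 after centring (5631), and in WB against NT to 36480 and 38842 (5462). Quantile normalization moved the median of varying genes by 0.11 in WB against TS and 0.13 in WB against NT. Leaving out 1 array gave 2027 to 2356 probe sets lower and 1952 to 2344 higher in TS against NT.

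With the probe set of largest variance, the sign turned in WB against TS for Lpl (-2.64), Acly (-1.01), Elovl5 (-1.68), Me1 (-0.94) and Car3 (-4.61), in WB against NT for Acly (-1.01), Elovl5 (-2.36) and Me1 (-1.30), and in TS against NT for Acly (0.0054). With the mean of a gene's varying probe sets it turned in WB against TS for Lpl (-0.98), Acly (-0.26), Elovl6 (-0.066), Elovl5 (-0.41), Me1 (-0.27) and Car3 (-1.10), and in WB against NT for Acly (-0.28), Elovl5 (-1.09) and Me1 (-0.58). After quantile normalization it turned for Cebpa in TS against NT (0.014) and Lpl in WB against NT (0.12). When 1 array was left out, 6 members without a call changed sign in TS against NT: Cebpa (-0.12 to 0.085), Dgat1 (-0.061 to 0.0061), Acly (-0.13 to 0.010), Pnpla2 (-0.018 to 0.12), Cidea (-0.25 to 0.072) and Acacb (-0.15 to 0.014). In TS against NT with only the 12 arrays compared, the calls of Acaca (adjusted p = 0.126) and Me1 (0.0563) were lost besides that of Slc2a4, and with the mean of the varying probe sets those of Cd36 (-0.11) and Gpd1 (-0.17) were lost in WB against TS. The cause of these changes was not tested.

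The labels number the arrays 1 to 6 in each group. Over 18 same-numbered pairs, deviations from the group means correlated at -0.27 to 0.14, 4 over 0.1, and 6 arrays correlated best with their own number. These values do not decide whether the numbers mark pairs. The labels do not state that they do, so the main fit took no pairs, and a replicate block was an alternative. With the replicate block, 20 members fell and 0 rose in TS against NT, where Acaca (adjusted p = 0.0612) and Elovl5 (0.121) were lost; 20 fell and 9 rose in WB against TS; and 26 fell and 3 rose in WB against NT. Probe sets that vary by less than 0.01, including Aqp7, Acvr1c and Ucp1, give no information on their genes, and values below the array medians near 6.9 carry no fold. Differences that involve WB rest on arrays whose control probe sets are shifted.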

Other observations

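Of 22 varying genes of fatty acid oxidation, which burn the stored fatty acids, 5 fell and 2 rose in TS skin, with a median of -0.05. Among all varying genes 21.1% fell and 19.3% rose, so the falls of this list were near the share of all genes. Pdk4, the kinase that turns pyruvate away from oxidation, rose by 2.16 (adjusted p = 0.00213), and Eci1 (-0.30), Decr1 (-0.32) and Hsd17b4 (-0.30), enzymes of beta-oxidation, fell. In WB against TS, 11 of the 22 fell and 8 rose, beside 39.2% and 48.4% of all varying genes. Those with the smallest p were Hadha (-3.93), Cpt1a (-2.47), Etfdh (-1.63) and Echs1 (-3.63). The summed level of the list (log2 of the sum) overlapped, at 14.78 to 14.95 on WB arrays and 14.53 to 14.92 on TS arrays. Of 7 varying brown and beige fat genes 2 fell in TS skin, the cytochrome oxidase subunit genes Cox7a1 (-2.18) and Cox8b (-1.53), which muscle also expresses, while Elovl3 (0.30) and Pank1 (0.22) did not pass.

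Of 12 varying adipocyte progenitor genes 4 fell in TS skin and 0 rose, beside 21.1% and 19.3% of all varying genes. Pi16, a surface marker of adventitial progenitors, was at 8.07, 8.79 and 9.89 (lowest, median and highest) in TS skin, against 10.96, 11.38 and 11.87 in NT skin, a difference of -2.47 without overlap. Cd34 was at 10.11, 10.16 and 10.63 in TS skin, against 11.43, 11.78 and 12.14 in NT skin, a difference of -1.48. Anxa3 (-0.81) and Dpp4 (-0.50) fell less.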
